A study of Danio rerio with 6 samples.

Results

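The genes described here are the zebrafish Sox-, Pax-, Six-, Eya-, Dlx- and Gata-family transcription factor and cofactor genes, families that pattern the otic placode. They were taken by name, as every gene of the expression table whose symbol, in any letter case, began with one of the first 5 of these family names and a digit, or with Gata1 to Gata6. This gave 77 of the 31701 genes with values: 28 Sox, 15 Pax, 14 Six-family, 8 Dlx, 8 Gata and 4 Eya entries. A pair of these entries are non-coding (SOX2OT_exon1 and Six3os1_5), and sox4a has a second identifier that was listed at 0 in all samples. RNA-seq of hair cells was compared with that of non-sensory surrounding cells (nsSCs), with 3 samples for each cell type and 1000 cells in a sample. All cells came from adult female Tg(pou4f3:GAP-GFP)s273t zebrafish, 11 to 13 months old, in which the pou4f3 promoter drives membrane-bound GFP. Hair cells were GFP-positive and nsSCs were GFP-negative cells without a hair bundle, picked by pipette from the dissociated lagena, utricle and saccule. The labels name no other allele and no treatment, the organs of several fish were pooled, and nsSCs were defined only by the lack of GFP and bundle.

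The inner ear arises from the otic placode, a patch of ectoderm that first needs Dlx-, Pax-, Six-, Eya-, Sox- and Gata-family genes to form and later uses many of them again in its sensory patches. Six-family proteins bind DNA through a homeodomain, Eya proteins join them as coactivators that are also phosphatases, and Dach proteins act in the same complexes. Pax proteins bind through a paired domain, Gata proteins through zinc fingers and Sox proteins through an HMG box. The teleost genome duplication left many of these genes as a and b copies, which makes it possible to ask whether the copies of a gene are used alike in a hair cell and around it.

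The values are RPKM, read numbers scaled for transcript length and library size, so that levels of different genes can be set side by side. In what follows, 3 values in a row belong to samples 1, 2 and 3 of a cell type. Log2 fold changes are hair cells minus nsSCs, computed on log2(RPKM + 0.1), where the changes of low genes come out too small. Called genes are those with a limma adjusted p under 0.05 that also differed by 2-fold or more. With 3 samples on either side, exact permutation could not give a p under 0.1, and the p-values printed are those of limma. The study describes all 6 samples as biological replicates, while the labels do so for hair cells only. Both cell types were collected from each fish, and which samples shared fish is not stated. RPKM carry no counts, so that no counting error can be set beside a value.

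The labels were set beside marker genes. All 14 tested hair cell markers were higher in hair cells, with a summed level of 40479 to 41236 RPKM in hair cells against 159 to 164 RPKM in nsSCs, and none of the 14 was at 0 in all nsSC samples. Most of the hair cell sum was s100s and s100t. The list includes pou4f3, whose promoter marked the picked cells, and genes the study listed as enriched in these hair cells, so it is no independent check. The nsSC samples held markers of many cell types. Red blood cell markers (11 of 11 tested) were higher in nsSCs, summing to 980 to 1053 RPKM in hair cells and 20838 to 24618 RPKM in nsSCs. The same held for 11 of 12 glial, 10 of 11 cartilage, 10 of 10 fibroblast, 9 of 9 leukocyte, 12 of 16 endothelial and 9 of 11 muscle markers. Of 14 markers of otic supporting and matrix-secreting cells, 10 were higher in hair cells, 4 were not called and 0 were higher in nsSCs. Neuronal markers (2 higher in hair cells and 5 in nsSCs of 14 tested) and pigment cell markers (2 and 5 of 9) were mixed. In such bulk samples, fewer cells of a type and less RNA per cell cannot be told apart.

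The families were more abundant in hair cells as a whole. The 77 genes summed to 1933, 1965 and 1882 RPKM in hair cells and to 635, 663 and 636 RPKM in nsSCs. In hair cells 7 of them reached 100 RPKM, namely gata3, eya1, pax2a, dlx5a, eya4, six2b and six4b, and in nsSCs 0 did. The sums of all 6 families were higher in the 3 hair cell samples than in the 3 nsSC samples. The ratio of the sums was largest for Pax (196 ± 6.84 RPKM in hair cells against 9.64 ± 0.928 RPKM in nsSCs, SD, n = 3 each) and smallest for Dlx (224 ± 1.28 RPKM in hair cells against 144 ± 6.35 RPKM in nsSCs). A family sum hides its members, because each of the 6 families held genes called higher in hair cells and others called higher in nsSCs.

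**Figure D1:**
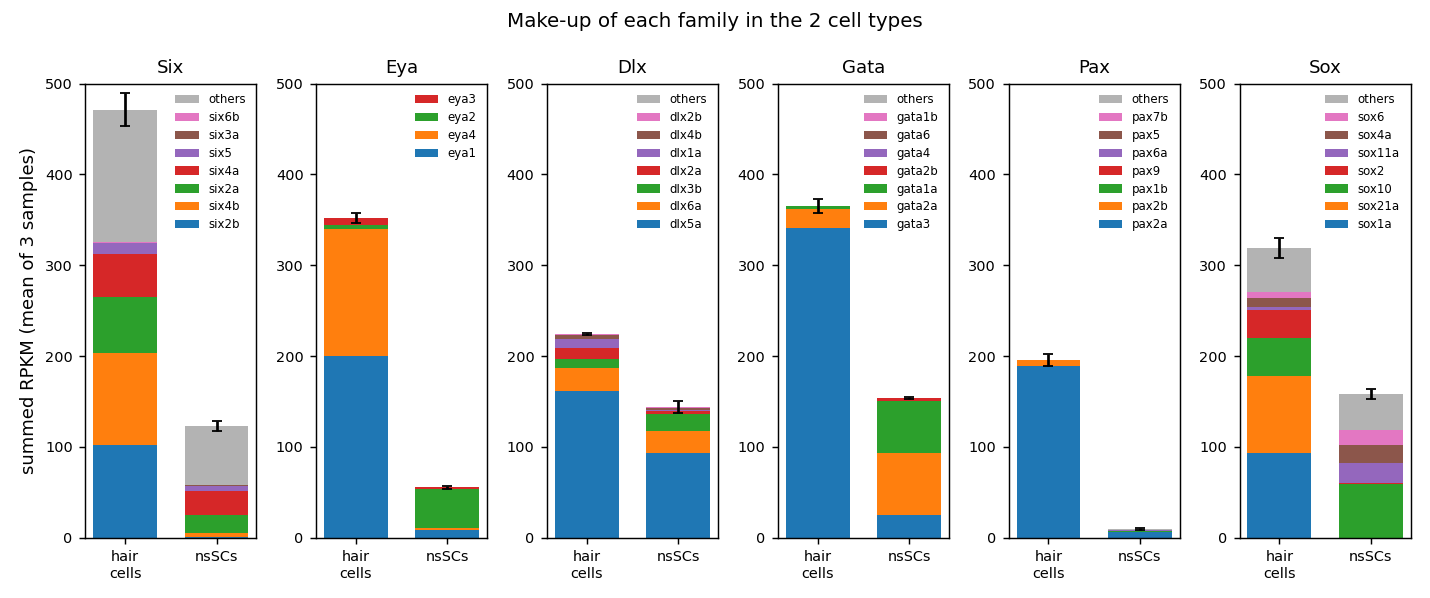
Stacked bars give the summed RPKM of each family in hair cells (left) and nsSCs (right), as the mean of 3 samples, with up to 7 members in colour and the rest in grey, and the black bar is the SD of the family sum. The Eya bar is mostly eya1 and eya4 in hair cells and mostly eya2 in nsSCs, and the Gata bar is mostly gata3 in hair cells and mostly gata2a and gata1a in nsSCs.

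Of the 77 genes, 61 averaged 0.1 RPKM or more in hair cells, nsSCs or both and were tested, and 16 did not, of which 9 were at 0 in every sample. Among the tested members 24 (39.3%) were called higher in hair cells, where 31.0% of all 22374 tested genes were. Another 21 (34.4%) were called higher in nsSCs, against 35.4% of all tested genes, and 16 were not called. The shares of tested members were thus close to those of all genes for nsSCs and somewhat above for hair cells. By level, of the 35 members that averaged 5 RPKM or more in hair cells, nsSCs or both, 19 (54.3%) were called higher in hair cells and 10 (28.6%) higher in nsSCs, beside 40.4% and 24.0% of the 10617 genes of that level. Of the 26 tested members below 5 RPKM, 5 (19.2%) were called higher in hair cells and 11 (42.3%) higher in nsSCs, near the 22.5% and 45.6% of the 11757 genes of that level. Some members called higher in nsSCs were at 0 in all hair cell samples, among them gata2b at 3.61, 3.13 and 3.84 RPKM in nsSCs. Others, called higher in hair cells, were at 0 in all nsSC samples. The shares of all called genes at 0 in the other cell type were not counted. Of all genes, 17308 to 18936 were above 0 in a hair cell sample and 22021 to 22470 in an nsSC sample. The levels were reproducible: for members of at least 5 RPKM the coefficient of variation among the 3 samples had a median of 4.84% in hair cells (1.20% for eya1 to 21.8% for sox6) and 7.43% in nsSCs (1.83% for gata3 to 20.0% for sox8b).

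**Figure D2:**
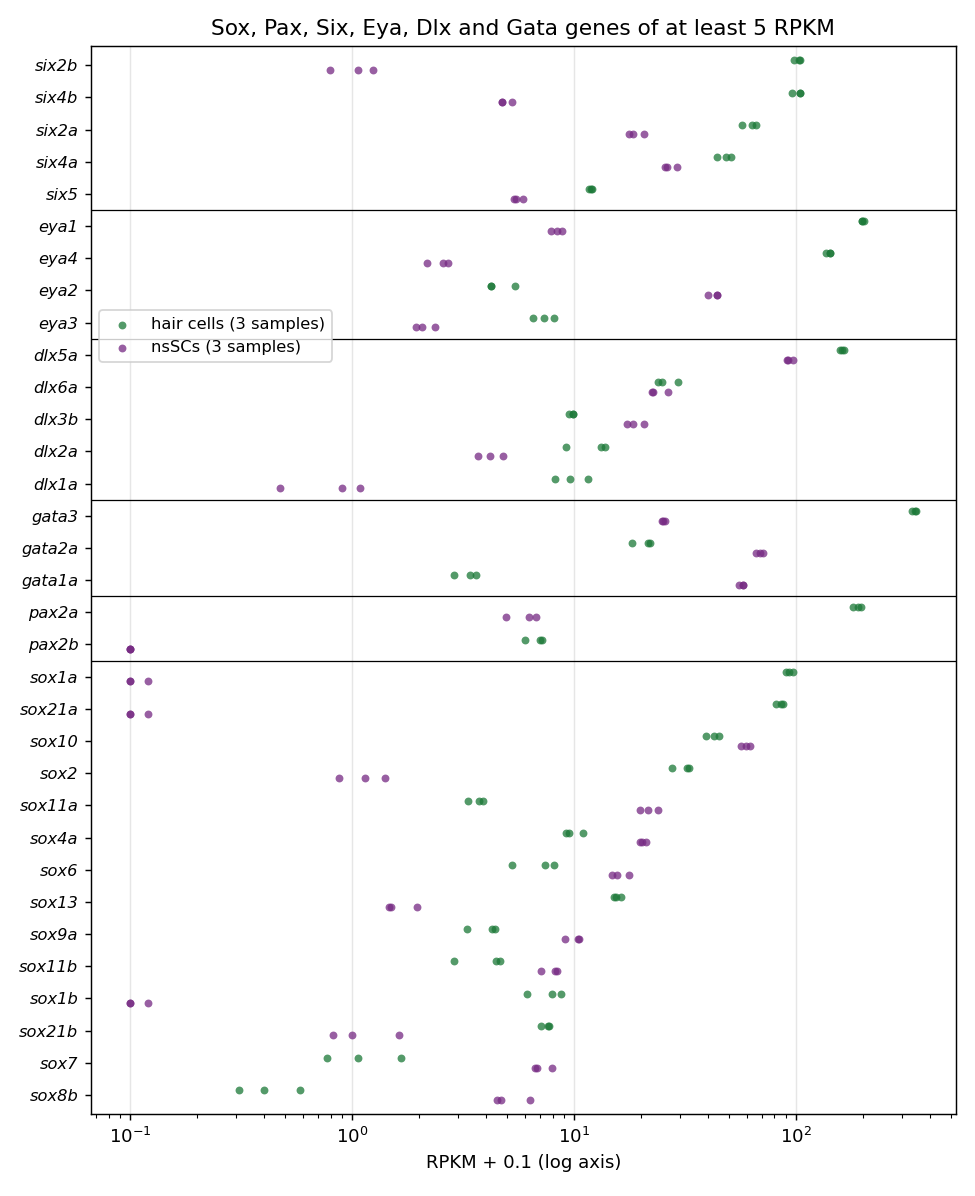
Each point is the level of a gene in a sample, as RPKM + 0.1 on a log axis, for 33 of the 35 members that averaged 5 RPKM or more in hair cells, nsSCs or both, with hair cells in green, drawn just above nsSCs in purple. For dlx6a the points of the cell types overlap, and how often this was so over all genes was not counted.

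The six2, six4 and six5 genes, whose proteins work with Eya proteins, were found in both cell types. Of these 5 genes 4 were called higher in hair cells and 1 was not called, where 40.4% of all genes of at least 5 RPKM were called higher in hair cells. six2b had 104, 104 and 97.6 RPKM in hair cells against 0.69, 0.96 and 1.14 RPKM in nsSCs, a log2 fold change of 6.65 (SE 0.16, adjusted p = 4.63e-08). six4b had 104, 105 and 95.5 RPKM in hair cells against 4.63, 4.65 and 5.13 RPKM in nsSCs, and its log2 fold change was 4.37 (SE 0.07, adjusted p = 8.88e-09). Both b copies were thus among the most abundant members in hair cells and low in nsSCs.

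The a copies of the same genes differed less between the cell types. six4a was not called, at 48.4, 50.9 and 44.1 RPKM in hair cells against 26.2, 29.1 and 25.5 RPKM in nsSCs (log2 fold change 0.83). It was 0.35 and not called after median-ratio scaling, and was called higher in hair cells, at 1.31, when samples were scaled to the same total RPKM. six2a was called, at 65.7, 63.0 and 56.9 RPKM in hair cells against 18.4, 20.6 and 17.5 RPKM in nsSCs (log2 fold change 1.71, SE 0.08), a smaller change than that of its b copy. six5, at 11.6, 12.0 and 11.9 RPKM in hair cells against 5.25, 5.78 and 5.35 RPKM in nsSCs, was called at a log2 fold change of 1.1, which was 0.63 and not called after median-ratio scaling and 0.99 with 1 RPKM added.

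The Six3 and Six6 genes, known for the eye and forebrain, were near the floor. six3a, six3b and six6a were at 0 in all hair cell samples and between 0.16 and 0.88 RPKM in nsSCs, while six6b had 0.66, 0.59 and 0.69 RPKM in hair cells against 0.29, 0.18 and 0.22 RPKM in nsSCs. six9 was not called, six7 stayed below the limit for testing, and Six3os1_5 was at 0 throughout.

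The Eya coactivators split by gene. eya1, whose loss in zebrafish causes the dog-eared phenotype with too few hair cells, had 198, 203 and 199 RPKM in hair cells against 8.74, 7.76 and 8.27 RPKM in nsSCs (log2 fold change 4.58, SE 0.06, adjusted p = 4.14e-09). eya4, a human deafness gene, had 142, 142 and 136 RPKM in hair cells against 2.08, 2.46 and 2.59 RPKM in nsSCs (log2 fold change 5.83, SE 0.09, adjusted p = 8.03e-09). eya2 went the other way. It had 4.13, 5.29 and 4.14 RPKM in hair cells against 40.1, 44.2 and 43.8 RPKM in nsSCs, a log2 fold change of -3.22 (SE 0.11, adjusted p = 2.22e-07). eya3 stayed low in both, with 6.46, 7.99 and 7.20 RPKM in hair cells against 2.26, 1.84 and 1.96 RPKM in nsSCs, and was called higher in hair cells (log2 fold change 1.79). As a share of the summed Eya level, eya1 and eya4 made up 56.9% and 39.8% in hair cells, against 14.9% and 4.29% in nsSCs. eya2 made up 1.29% in hair cells and 77.1% in nsSCs.

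The Dach genes, corepressors that bind Six- and Eya-family proteins, were 4 genes, of which 2 were called higher in hair cells, 1 in nsSCs and 1 was not called, beside 31.0% and 35.4% of all tested genes called in these directions. dachb had 42.9, 45.4 and 41.8 RPKM in hair cells against 7.93, 6.47 and 6.62 RPKM in nsSCs, and dachc had 24.1, 25.99 and 26.7 RPKM in hair cells against 8.83, 10.1 and 8.18 RPKM in nsSCs. dacha was higher in nsSCs, at 11.3, 13.3 and 10.6 RPKM in hair cells against 47.8, 52.6 and 50.02 RPKM in nsSCs (log2 fold change -2.09, SE 0.09). dachd was similar in level, at 18.1, 20.3 and 20.1 RPKM in hair cells and 14.1, 16.4 and 14.7 RPKM in nsSCs. The median log2 fold change of the 4 genes was 0.93, beside -0.0004 over all tested genes.

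Within the Pax family the Pax2/5/8 group stood out, which in embryos drives the otic placode. pax2a had 196, 190 and 181 RPKM in hair cells against 4.82, 6.16 and 6.64 RPKM in nsSCs, a log2 fold change of 4.99 (SE 0.12, adjusted p = 3.98e-08). pax2b had 5.90, 7.06 and 6.90 RPKM in hair cells and was listed at 0 in the 3 nsSC samples, so that no fold is given. In hair cells pax2a thus made up 96.3% of all Pax RPKM, against 60.9% in nsSCs. pax5, which in the zebrafish ear marks the utricular macula, was barely detected, at 0, 0.03 and 0 RPKM in hair cells and 0.41, 0.41 and 0.54 RPKM in nsSCs. pax8, the earliest Pax gene of the embryonic placode, was listed at 0 in all 6 samples. None of the other 11 Pax genes exceeded 1.44 RPKM in a sample. Of these, pax1b and pax9, known from pharyngeal and skeletal tissue, were at 0 in all hair cell samples and at 1.07 to 1.44 and 0.58 to 0.91 RPKM in nsSCs, and pax6a and pax10 were also called higher in nsSCs.

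The Dlx sums were the closest of the 6 families between the cell types. Of 7 tested Dlx genes, 3 were called higher in hair cells, 1 in nsSCs and 3 were not called, beside 31.0% and 35.4% of all tested genes called in these directions. dlx5a, which with Dlx6 patterns the dorsal otic vesicle in mice, had 161, 159 and 164 RPKM in hair cells and 92.3, 97.2 and 90.6 RPKM in nsSCs. The groups did not overlap but the log2 fold change of 0.79 (SE 0.04, adjusted p = 1.91e-06) was under the 2-fold minimum. It was 0.31 and not called after median-ratio scaling, and was called at 1.28 when samples were scaled to the same total RPKM. dlx5a was the most abundant of all 77 members in nsSCs. dlx6a had 29.4, 24.8 and 23.9 RPKM in hair cells and 22.7, 26.3 and 22.3 RPKM in nsSCs, which overlap, with a log2 fold change of 0.13 (SE 0.10, adjusted p = 0.270) that was -0.35 after median-ratio scaling.

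dlx3b and dlx4b, which act together in zebrafish to give ectoderm the competence to form the ear, differed from each other. dlx3b had 9.35, 9.75 and 9.78 RPKM in hair cells against 20.6, 17.2 and 18.3 RPKM in nsSCs, and just missed the 2-fold minimum with a log2 fold change of -0.95 (SE 0.08, adjusted p = 3.2e-05). It was called at -1.42 after median-ratio scaling and at -1.01 without nsSC sample 2, and was -0.46 and not called at the same total RPKM. dlx4b was called higher in hair cells, at 5.26, 5.54 and 4.15 RPKM in hair cells against 1.71, 2.63 and 1.13 RPKM in nsSCs (log2 fold change 1.47, SE 0.29, adjusted p = 0.00245). dlx1a, dlx2a and dlx2b, known from the forebrain and jaw, were lower in level than dlx5a and dlx6a in both cell types. dlx1a had 8.13, 11.5 and 9.51 RPKM in hair cells against 0.37, 0.98 and 0.80 RPKM in nsSCs (log2 fold change 3.66, SE 0.32), and dlx2a had 9.10, 13.6 and 13.1 RPKM in hair cells against 4.09, 4.70 and 3.60 RPKM in nsSCs (log2 fold change 1.49, SE 0.18). Both were higher in hair cells, whereas dlx2b was called higher in nsSCs, at 0.56, 0.51 and 0.63 RPKM in hair cells against 1.79, 1.82 and 1.45 RPKM in nsSCs. This call ended at the same total RPKM (-0.98) and with 1 RPKM added (-0.78). dlx4a was listed at 0 in all samples.

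gata3 was the most abundant of all 77 members. This gene, whose loss of a copy in humans causes deafness with kidney and parathyroid defects, had 343, 348 and 333 RPKM in hair cells against 25.2, 25.7 and 24.8 RPKM in nsSCs (log2 fold change 3.75, SE 0.04, adjusted p = 2.57e-09). It ranked 263 among 31701 genes in hair cells and 2643 in nsSCs. The nsSC level was 7.39% of that in hair cells, while the summed hair cell markers in nsSCs stood at 0.394% of their level in hair cells. The 14 single markers ranged from 0.0018% (chrna9) to 5.76% (atoh1a), with a median of 0.399%, and the part of hair cells in the nsSC level of gata3 was not tested.

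Of the other 7 Gata genes, gata1a, gata2a and gata2b were called higher in nsSCs. gata2a, a gene of blood precursors and endothelium that also acts in the developing ear of mice, had 18.1, 21.8 and 21.4 RPKM in hair cells against 66.2, 68.6 and 70.7 RPKM in nsSCs (log2 fold change -1.74, SE 0.08, adjusted p = 9.42e-07). gata1a, the master regulator of red blood cells, had 3.52, 2.78 and 3.31 RPKM in hair cells against 57.4, 57.6 and 55.4 RPKM in nsSCs (log2 fold change -4.11, SE 0.10, adjusted p = 3.95e-08). Its hair cell level was 5.64% of that in nsSCs, beside 4.49% for the summed red blood cell markers and 2.99% to 19.9% for the single ones, and the part of these cells in the gata1a difference was not tested. gata2b was at 0 in the 3 hair cell samples. The Gata genes known from heart and gut were low: gata4 was not called, and gata5 and gata6 were too low for testing, as was gata1b. As a share of the summed Gata level, gata3 made up 93.5% in hair cells and 16.3% in nsSCs, while gata2a and gata1a made up 5.60% and 0.878% in hair cells and 44.4% and 36.8% in nsSCs.

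Of 8 genes that work with Gata proteins, 3 were called higher in hair cells, 4 in nsSCs and 1 was not called, beside 31.0% and 35.4% of all tested genes. The LIM-only gene lmo4b had 259, 261 and 264 RPKM in hair cells against 44.8, 43.0 and 40.8 RPKM in nsSCs, and lmo4a and ldb1a, the LIM domain binding gene, were also higher in hair cells (log2 fold changes 1.57 and 1.35). lmo2, the LIM-only gene of blood and endothelium, had 7.65, 7.92 and 9.18 RPKM in hair cells against 30.4, 32.9 and 30.1 RPKM in nsSCs. The remaining genes called higher in nsSCs were tal1, the partner of Gata1 and Lmo2 in blood precursors, and zfpm2a and zfpm2b, which encode Friend of Gata proteins.

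The Sox family showed its clearest difference in the SoxB genes. The SoxB1 genes, which keep neural and sensory progenitors uncommitted in many tissues, summed to 132, 140 and 132 RPKM in hair cells against 4.38, 3.59 and 2.93 RPKM in nsSCs. sox1a had 93.2, 96.6 and 90.1 RPKM in hair cells against 0.02, 0 and 0 RPKM in nsSCs. Its log2 fold change was 9.78 (SE 0.12, adjusted p = 4.14e-09), and its size was set by the added value, since it was 6.55 with 1 RPKM added. sox1b followed it at a lower level, with 8.62, 7.88 and 6.03 RPKM in hair cells against 0.02, 0 and 0 RPKM in nsSCs. sox2, which marks the sensory progenitors and supporting cells of the ear, had 27.7, 32.2 and 33.0 RPKM in hair cells against 1.31, 1.04 and 0.77 RPKM in nsSCs (log2 fold change 4.79, SE 0.18, adjusted p = 3.78e-07). The 14 markers of otic supporting and matrix-secreting cells summed to 745 to 754 RPKM in hair cells against 140 to 144 RPKM in nsSCs. The largest in hair cells were tectb, stm and otomp, at means of 172, 155 and 121 RPKM, and 4 of the 14 were not called. The part of such cells in the sox2 values was not tested. sox19a, a fish-specific SoxB1 gene, was also called higher in hair cells, at a mean of 1.12 RPKM in hair cells against 0.0167 RPKM in nsSCs. sox3, an early placode gene, was not called, at 1.56, 1.61 and 1.54 RPKM in hair cells and 2.94, 2.49 and 2.15 RPKM in nsSCs (log2 fold change -0.64). It was called at -1.1 after median-ratio scaling, and was -0.18 and not called at the same total RPKM. It made up 1.17% of the SoxB1 sum in hair cells and 69.5% of the small sum in nsSCs.

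SoxB2 proteins bind the same sites as SoxB1 but repress. sox21a had 85.5, 87.5 and 80.9 RPKM in hair cells against 0, 0.02 and 0 RPKM in nsSCs, a log2 fold change of 9.64 (SE 0.12, adjusted p = 4.35e-09) that was 6.41 with 1 RPKM added. sox21b had 6.98, 7.61 and 7.52 RPKM in hair cells against 0.72, 1.52 and 0.90 RPKM in nsSCs (log2 fold change 2.76, SE 0.25). The SoxB1 activators and SoxB2 repressors were thus high in the same samples, and sox1a and sox21a together came to more than the other Sox genes of the hair cells, at 29.3% and 26.5% of the Sox sum in hair cells against 0.004% each in nsSCs. sox14 was too low for testing, and the non-coding SOX2OT_exon1 was above 0 in hair cell sample 2 alone, at 0.39 RPKM.

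The SoxC genes, which promote differentiation of neurons and sensory cells, were lower in hair cells as a group, with sums of 19.8, 20.01 and 20.1 RPKM in hair cells against 53.5, 48.1 and 49.1 RPKM in nsSCs. sox11a had 3.64, 3.24 and 3.80 RPKM in hair cells against 23.7, 19.8 and 21.4 RPKM in nsSCs (log2 fold change -2.57, SE 0.10, adjusted p = 4.51e-07). sox4a had 10.8, 9.42 and 9.09 RPKM in hair cells against 21.1, 19.7 and 20.2 RPKM in nsSCs (log2 fold change -1.05, SE 0.08), a call that ended when samples were scaled to the same total RPKM (-0.57) or 1 RPKM was added (-0.99). The call of sox11b, at 2.76, 4.33 and 4.53 RPKM in hair cells against 8.23, 8.13 and 7.02 RPKM in nsSCs, was as near the limit (log2 fold change -1.02, SE 0.20, adjusted p = 0.00215). It was lost without hair cell sample 1 (-0.80), without nsSC sample 1 (-0.98) and without nsSC sample 2 (-0.99), as well as at the same total RPKM (-0.54) and with 1 RPKM added (-0.87). sox4b went the other way at a low level, with 2.49, 2.81 and 2.51 RPKM in hair cells against 0.41, 0.56 and 0.48 RPKM in nsSCs (log2 fold change 2.22), and sox12 was called higher in hair cells at 0.05, 0.21 and 0.14 RPKM, with 0 in nsSCs.

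Among the SoxD genes, sox13 had 14.99, 15.4 and 16.1 RPKM in hair cells against 1.37, 1.39 and 1.86 RPKM in nsSCs (log2 fold change 3.26, SE 0.14, adjusted p = 5.41e-07). sox6, a cofactor of Sox9 in cartilage, was higher in nsSCs, at 5.15, 8.01 and 7.28 RPKM in hair cells against 14.8, 17.6 and 15.6 RPKM in nsSCs (log2 fold change -1.24, SE 0.17, adjusted p = 0.000348), a call that ended at the same total RPKM (-0.75). sox5 was not called. As deposited, the SoxD sums of 21.9, 25.7 and 25.7 RPKM in hair cells and 19.3, 22.6 and 20.7 RPKM in nsSCs overlapped. These sums were not compared under other scalings. The make-up of the group differed, with sox13 at 63.4% of the sum in hair cells and 7.4% in nsSCs, and sox6 at 27.9% and 76.5%.

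The SoxE genes act in the otic placode, the neural crest, glia and cartilage. Of 5 tested, 2 were called higher in nsSCs and 0 in hair cells, beside 35.4% and 31.0% of all tested genes. sox10 had 39.2, 44.7 and 42.4 RPKM in hair cells and 59.6, 62.1 and 56.5 RPKM in nsSCs. The samples did not overlap, but the log2 fold change of -0.50 (SE 0.07, adjusted p = 0.000271) was not called. It was -0.98 after median-ratio scaling, also not called, and -0.01 when samples were scaled to the same total RPKM. This gene is a standard glial marker. Its hair cell level was 70.9% of that in nsSCs. The summed glial markers in hair cells, at 152 to 163 RPKM in hair cells against 4989 to 5189 RPKM in nsSCs, stood at 3.06% of those in nsSCs, with 3 of 12 at 0 in every hair cell sample (egr2b, gfap and plp1a). Most of that sum was mbpa. The single markers reached 33.4% (foxd3) with a median of 3.27%, and the part of glia in the sox10 values was not tested. sox9a, known for the otic placode and cartilage, had 3.18, 4.18 and 4.30 RPKM in hair cells against 9.01, 10.3 and 10.4 RPKM in nsSCs and was called (log2 fold change -1.34, SE 0.14), though not under scaling to the same total RPKM (-0.86). sox8b had 0.48, 0.21 and 0.30 RPKM in hair cells against 4.56, 6.22 and 4.39 RPKM in nsSCs (log2 fold change -3.61, SE 0.26). Cartilage markers summed to 17.7 to 18.0 RPKM in hair cells and 919 to 996 RPKM in nsSCs, with 5 of 13 at 0 in all hair cell samples. Of these 5, acanb and matn3a were at 0 in all nsSC samples too. The part of cartilage in the sox6, sox8b and sox9a values was not tested. sox9b had 0.68, 0.11 and 0.21 RPKM in hair cells and 0.40, 0.19 and 0.37 RPKM in nsSCs, and sox8a had 0.12, 0.09 and 0.10 RPKM in hair cells and 0.02, 0.03 and 0.05 RPKM in nsSCs. Neither was called.

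The SoxF genes of blood and lymph vessels were higher in nsSCs. sox7 had 1.55, 0.96 and 0.67 RPKM in hair cells against 6.69, 7.81 and 6.56 RPKM in nsSCs (log2 fold change -2.68, SE 0.27, adjusted p = 6.61e-05), and sox18 was at 0 in all hair cell samples and at 0.66, 0.60 and 0.39 RPKM in nsSCs. Endothelial markers moved with them, with sums of 26.2 to 30.7 RPKM in hair cells against 71.8 to 80.6 RPKM in nsSCs and 8 of 16 at 0 in all hair cell samples. The hair cell sums were mostly esama, called higher in hair cells, and were 3.60 to 4.22 RPKM in hair cells against 71.0 to 78.9 RPKM in nsSCs without it. Their part was not tested. sox17 and sox32, known from endoderm, were at 0 in all samples.

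**Figure D3:**
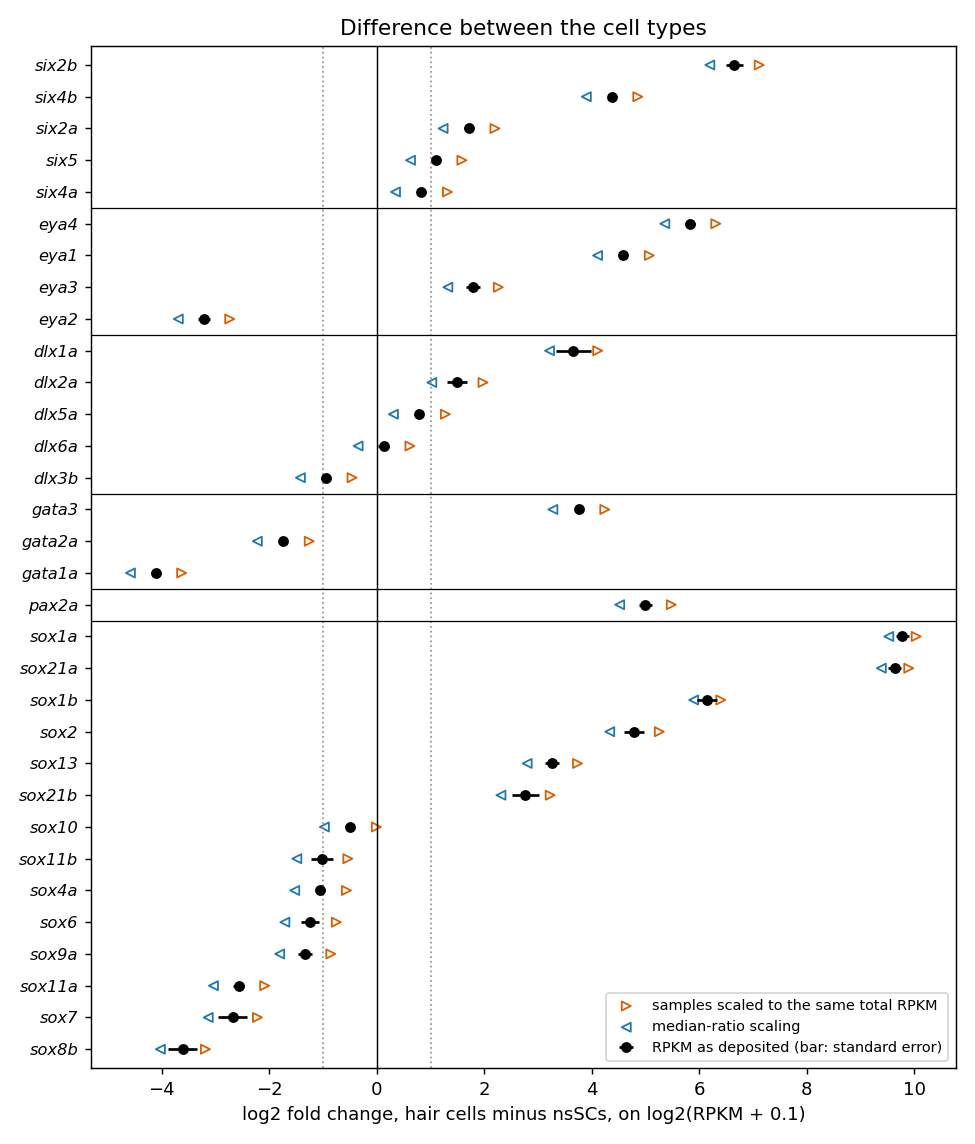
Log2 fold changes (hair cells minus nsSCs) are drawn for those of these 33 members that were above 0 in both cell types, as deposited (black, with standard error) and under the scalings that moved all genes furthest to either side (triangles), and dotted lines mark the 2-fold minimum. Of these genes, dlx6a lies on different sides of 0 under different scalings.

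The summed RPKM of all genes differed between the cell types, at 704199 to 713194 in hair cells against 976739 to 1012812 in nsSCs, so that the scaling of the samples bears on each fold change. Median-ratio scaling moved the median log2 fold change of all tested genes to -0.45, and scaling to the same total RPKM moved it to 0.46. Of the genes called in these families, 0 changed direction under these scalings or under the same total without mitochondrial entries. Members called higher in hair cells numbered 22 after median-ratio scaling and 27 at the same total, and those called higher in nsSCs 25 and 15. Over all genes, calls higher in hair cells made up 46.7% of all calls as deposited, 37.7% after median-ratio scaling and 55.5% at the same total.

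The ratio of the a and b copies of duplicated genes often differed between the cell types. The nsSC samples hold many cell types, and which cells carried each copy was not tested. Because both copies are measured in each library, their ratio does not depend on the scaling of the samples except through the 0.1 RPKM added, and its difference between cell types can be tested in the same way. The sox4 pair was left out because sox4a has more than 1 identifier. Of 15 pairs of a and b copies among these genes, 14 were called, where 69.5% of 1500 such pairs in the whole table were. With 1 RPKM added 10 of the 15 were called, beside 857 of the 1500. The log2 ratio of six2a over six2b was -0.66, -0.72 and -0.78 in hair cells against 4.55, 4.29 and 3.83 in nsSCs, a difference of -4.94 (SE 0.17, adjusted p = 1.54e-08). That of six4a over six4b was -1.1, -1.04 and -1.11 in hair cells against 2.48, 2.62 and 2.29 in nsSCs (difference -3.55, SE 0.10, adjusted p = 4.7e-09). For both genes the b copy was thus the higher one in hair cells and the a copy in nsSCs.

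Other families gave other patterns. sox11a and sox11b were about equal in hair cells, at log2 ratios of 0.39, -0.41 and -0.25, and sox11a was the higher in nsSCs, at 1.52, 1.27 and 1.59 (difference -1.55, SE 0.23, adjusted p = 0.00019). dlx2a exceeded dlx2b in both cell types, by log2 ratios of 3.80, 4.49 and 4.17 in hair cells and 1.15, 1.32 and 1.26 in nsSCs (difference 2.91, SE 0.22). sox9 was not called (difference -1.19, SE 0.55, adjusted p = 0.070), and it was called without hair cell sample 2 (-1.66), after median-ratio scaling (-1.32) and with 1 RPKM added (-1.16). The pax7 pair (difference 1.32, adjusted p = 0.044) lay between 0 and 0.36 RPKM throughout and lost its call without hair cell sample 1 (0.65) and without nsSC sample 1, 2 or 3 (1.16, 1.32 and 1.48). In the pax2, pax6, gata2, six3, six6, sox1, sox8 and sox21 pairs a copy was at or next to 0 in one of the cell types, so that their differences rest on the added 0.1 RPKM and are not given.

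**Figure D4:**
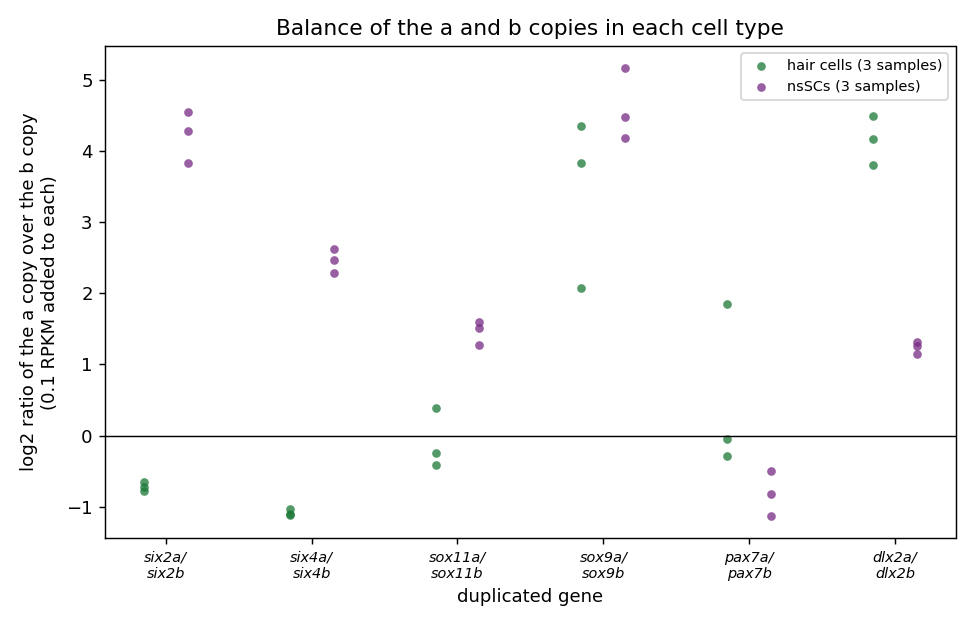
The log2 ratio of the a copy over the b copy is plotted in each sample for 6 duplicated genes both of whose copies averaged 0.1 RPKM or more in each cell type, with hair cells in green to the left of nsSCs in purple, ordered by the difference. For six2 and six4 the hair cells lie below 0 and the nsSCs between 2.29 and 4.55, and for dlx2 the order is turned round, with hair cells between 3.80 and 4.49.

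Several of these genes lie next to each other in the genome. By symbol, 10 pairs of members, 7 of Six-family and 3 of Dlx genes, are direct neighbours among the protein-coding genes of the zebrafish assembly GRCz12tu, which is not the build of the expression table. Neighbours could differ. six2b had a mean of 102 RPKM in hair cells against 0.930 RPKM in nsSCs, and its neighbour six3b was at 0 in hair cells and 0.323 RPKM in nsSCs. On the other Six2 locus, six2a had 61.9 RPKM in hair cells against 18.8 RPKM in nsSCs beside six3a, which was at 0 in hair cells against 0.753 RPKM in nsSCs. Within the Dlx clusters, dlx1a and dlx2a were both higher in hair cells, dlx5a and dlx6a were not called, and dlx3b and dlx4b had log2 fold changes of opposite sign (-0.95 and 1.47).

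Of the other regulators of the otic placode and vesicle, listed from general knowledge, 34 of 38 in the table were tested. Among them 9 were called higher in hair cells, 17 in nsSCs and 8 were not called, beside 31.0% and 35.4% of all tested genes called in these directions. Their median log2 fold change was -1.46, beside -0.0004 over all tested genes. hmx4, a homeobox gene of the ear and eye, was the highest in mean level, at 0.14, 0.25 and 0.38 RPKM in hair cells against 287, 281 and 278 RPKM in nsSCs. Of the T-box genes, tbx2a and tbx3a were called higher in hair cells (log2 fold changes 1.59 and 2.94), and tbx2b and tbx1 were not called. tbx2b had 117, 118 and 107 RPKM in hair cells and 58.0, 67.3 and 60.3 RPKM in nsSCs (log2 fold change 0.89). tbx1 had 39.9, 39.8 and 43.1 RPKM in hair cells and 43.6, 43.6 and 45.7 RPKM in nsSCs. msx3, a homeobox repressor, was not called either, at 34.4, 32.9 and 33.5 RPKM in hair cells and 42.8, 38.8 and 44.9 RPKM in nsSCs. Groucho corepressors bind Six-family, Pax and other factors. Of 8 listed Groucho and related genes, 3 were found under these names. Among them, tle3a was called higher in hair cells, the related gene aes was called higher in nsSCs, and tle3b was not called.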

How the data were processed

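The authors prepared RNA of 1000 picked cells per sample with a low-input kit, sequenced it, and deposited RPKM after mapping to GRCz10; CLC Genomics Workbench and HTSeq are named, and their versions are not given in the sources used here. The deposited RPKM have 2 decimals, and the depth per sample is not known from them. Of 35919 table entries, 4218 hold only a name and 31701 are genes with values.

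The 22374 genes that averaged 0.1 RPKM or more in hair cells, nsSCs or both were fitted on log2(RPKM + 0.1) by limma 3.58.1, run in R 4.3.3 beside statmod 1.5.0, using trended, robust moderation, hair cells minus nsSCs, and Benjamini-Hochberg adjustment over all of them. Copies were compared by limma on the within-sample log2 ratio. The script was tested on simulated data. Values per sample are given for genes averaging 5 RPKM or more in hair cells, nsSCs or both, their a or b copies and a list of otic factors, and up to 4 genes of each other list by mean RPKM. The genes, lists and rules were chosen with earlier results of these data known. Alternatives changed the pseudocount, filter, fold minimum, scaling, moderation, replicate block and samples, and included the study's own rule. Summaries and plots used Python 3.11.15, pandas 2.3.3, numpy 2.4.6 and matplotlib 3.10.9. Of the genes described, 74 were found by symbol in the GRCz12tu list, and gata5, sox19b and gata1b shared their low values with another gene. Results of some genes are not reported here.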

Additional observations from a re-analysis of the deposited data

How the results depend on the processing

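The count of members higher in nsSCs (21) was 10 with 1 RPKM added and 13 with a filter of 1 RPKM, which tests fewer low genes. Called member pairs (14) were 9 with that filter and 9 at a fold minimum of 4, beside 695 of 1029 and 702 of 1500 pairs in the whole table. Over all genes, those higher in hair cells (6929) were 4008 at a fold minimum of 4, and those higher in nsSCs (7917) were 4516 with 1 RPKM added and 5046 with the filter of 1 RPKM. Signs turned for dlx6a under median-ratio scaling (-0.35) and at the same total without mitochondrial entries (-0.24), and for sox9b at the same total (0.21) and under the study's rule (0.059), and when 1 sample was left out (-0.68 to 0.27), none of them called. The pax2 pair, called with a negative difference, turned round and was called at 1.87 with 1 RPKM added, since pax2b was at 0 in nsSCs. Leaving out 1 sample gave 23 to 25 members higher in hair cells, 19 to 22 higher in nsSCs and 12 to 15 pairs. Samples of the same replicate number did not deviate together (correlations -0.047, 0.023 and 0.0013), which cannot show whether they shared fish. With the replicate block 25 members were higher in hair cells, 21 in nsSCs, and 15 pairs were called.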
